A study of Rattus norvegicus with 12 samples.

Results

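Stra8 and Sycp3 mark the entry of male germ cells into meiosis and the long prophase that follows. They are 2 of the 578 rat markers in the study's marker table, where Stra8 is listed with spermatogonia and Sycp3 with spermatocytes. Each gene was found in the deposited tables as the transcript whose estimated counts equal the marker's counts in all 12 libraries. Stra8 matched the transcript ENSRNOT00000014093.5 (1098 bases) and Sycp3 the transcript ENSRNOT00000007088.6 (1653 bases), with no other match. The whole tables hold 31715 transcripts, which gave 31512 features once the transcripts of each marker were summed.

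The libraries were made from whole testes of Sprague Dawley (SD) rats labelled 8 weeks of age, all without any labelled genetic change. The study asked how stress of different duration affects germ cells, and 3 libraries each came from controls and from rats exposed for 3, 14 or 21 days to RS+IS, which is daily restraint followed by swimming in ice water. The controls moved freely but went without food and water during the same hours, so fasting was common to all groups. The study describes controls kept for each duration, while the labels give a single control group. Its methods take the libraries as separate testis samples, but the labels name no animals, so the p-values below measure the spread between these samples. Estimated counts summed to between 23908048 and 29404590 per library. A testis holds many cell types, and in bulk RNA fewer cells of a type and less RNA per cell cannot be told apart. Germ cell markers were abundant in every library: Hspa2, a spermatocyte heat shock protein, had a TPM (a level corrected for transcript length and library size) between 836 and 1008. Lists of Sertoli cell, Leydig cell, peritubular, immune and undifferentiated spermatogonia genes held no gene that could be named through the marker table, so their levels were not measured here.

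The deposited values of Stra8 have a limit that touches every result on it. In the 6 libraries of the 14-day and 21-day stress groups its estimated count and its TPM do not correspond to each other. Both are therefore given for its levels, while its fold changes below use the deposited counts unless another reading is named. Sycp3 shows no such difference in any library.

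Retinoic acid made in the seminiferous epithelium switches on Stra8 in differentiating spermatogonia and again in preleptotene spermatocytes, just before the last replication of the genome. The STRA8 protein, together with its partner MEIOSIN, then turns on genes of the meiotic program, and mouse germ cells without Stra8 fail to carry out a normal meiosis. SYCP3 is a structural protein of the chromosome axes and of the lateral elements of the synaptonemal complex, the protein ladder that holds homologous chromosomes together while they recombine. It is made from the start of meiotic prophase and is a standard marker of primary spermatocytes, so the pair brackets the passage from spermatogonium to spermatocyte.

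The 250 bases before each gene's start are shown because Stra8 and Sycp3 are read here as an early and a later step of the same program, and the letters show which short motifs their start regions share. The sequences are those of RefSeq on rat build GRCr8, plus strand, from chr4:64568330-64568579 for Stra8 and chr7:24761226-24761475 for Sycp3, and capitals mark the motifs found.
Stra8: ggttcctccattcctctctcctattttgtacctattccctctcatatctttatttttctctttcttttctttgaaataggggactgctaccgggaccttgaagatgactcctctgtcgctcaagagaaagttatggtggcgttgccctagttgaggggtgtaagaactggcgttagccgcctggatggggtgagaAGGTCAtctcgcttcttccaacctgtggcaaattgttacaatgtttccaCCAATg
Sycp3: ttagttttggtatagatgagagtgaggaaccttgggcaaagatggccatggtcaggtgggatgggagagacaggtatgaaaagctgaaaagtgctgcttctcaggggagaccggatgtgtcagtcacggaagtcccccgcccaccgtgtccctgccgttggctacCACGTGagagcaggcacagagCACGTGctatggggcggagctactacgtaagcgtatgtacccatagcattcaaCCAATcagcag

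Stra8 held AGGTCA, the half-site bound by retinoic acid receptors, 55 bases before its start, a match present in 14.1% of 33469 RefSeq promoters of this length. Sycp3 did not hold these letters. It held the E-box CACGTG at 85 and 64 bases before its start, a motif of 5.59% of promoters. CCAAT, the CCAAT box, stood at 6 bases before the start of Stra8 and 11 bases before that of Sycp3, and was present in 34% of promoters. Neither window held TATAAA, the TATA box (12.9% of promoters), or CNCCTCAG, the motif reported for STRA8 and MEIOSIN (7.11%). Motifs were searched on both strands, and none of the matches shown overlapped another.

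In RefSeq no gene overlapped Stra8 on chromosome 4, where Wdr91 and Slc23a4 are its neighbours. Sycp3 on chromosome 7 overlapped Chpt1, an enzyme gene of phospholipid synthesis. The libraries kept the strand of the RNA, but the counting setting is not given in the sources used here, so reads from the shared stretch cannot be told apart.

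As deposited, both genes were most abundant in control and 3-day stress testes and least abundant after 21 days of stress. The control libraries held 13.2, 13.1 and 12.9 TPM of Stra8. The 3-day libraries held 17.1, 14.3 and 14.4 TPM, so all lay above the controls. The 14-day libraries held 9.81, 10.6 and 9.73 TPM and the 21-day libraries 8.65, 7.65 and 8.86 TPM. No 2 groups overlapped in the deposited TPM of Stra8, and the order from high to low was 3-day stress, control, 14-day stress and 21-day stress. In the shared reading explained below, the 14-day libraries came to 10.8, 11.5 and 11.2 TPM. The 21-day libraries came to 8.65, 10.7 and 12.8 TPM in that reading, so these 2 groups overlapped. Group means were 13.1 ± 0.117 TPM in controls, 15.2 ± 1.59 at 3 days, 10.05 ± 0.487 at 14 days and 8.39 ± 0.644 at 21 days (SD, n = 3).

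The deposited estimated counts of Stra8 gave the same order as its deposited TPM. They were 243, 238 and 246 in the control libraries and 301, 286 and 271 at 3 days. At 14 days they were 182.64, 197.615 and 181.238, and at 21 days 146.72, 149.237 and 150.737. These are modest counts, and an exact Poisson interval at 95% around a control count of 243 runs from 213 to 276, for counting error only. The spread among control libraries was smaller than counting alone would give: their SD was 4.04 counts, against 15.6 for Poisson counts of that mean, and at 21 days it was 2.03 against 12.2.

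Sycp3 was the far more abundant transcript. Its TPM was 303, 306 and 319 in control libraries, 350, 306 and 328 at 3 days, 277, 278 and 273 at 14 days, and 254, 261 and 258 at 21 days. In TPM the 3-day libraries overlapped the controls, every 14-day library lay below both of those groups, and every 21-day library lay below every 14-day library. Means were 309 ± 8.58, 328 ± 22.0, 276 ± 2.54 and 258 ± 3.57 TPM (SD, n = 3). The counts behind them were large, between 7538 and 10924 per library, so that counting error was small. The 3 libraries of the 14-day group lay closer than counting error alone would place them, with a CPM (counts scaled to the normalized library size) of 334 to 335, a coefficient of variation of 0.1497% against 1.08% for Poisson counts.

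On the TPM scale Sycp3 stood 23.6 ± 0.871-fold above Stra8 in controls, 21.6 ± 1.16-fold at 3 days, 27.5 ± 1.119-fold at 14 days and 30.9 ± 2.80-fold at 21 days (SD, n = 3). Among the 12 spermatogonia markers Stra8 ranked 7 by mean control TPM, and among the 181 spermatocyte markers Sycp3 ranked 36.

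**Figure D1:**
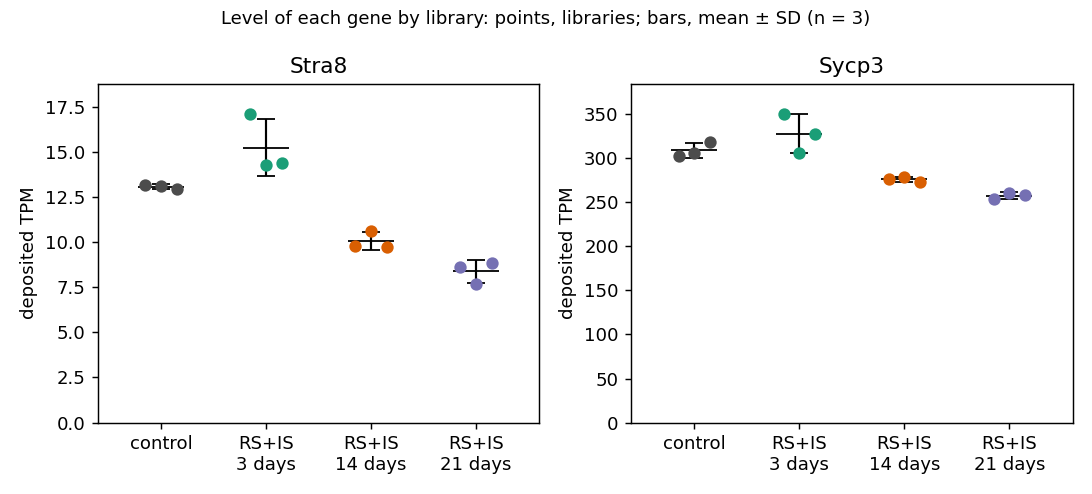
Deposited TPM of Stra8 (left) and Sycp3 (right) on linear axes from 0, with points for the 3 libraries of each group and bars for the mean and SD. Both genes stand lowest in the 21-day stress group, at 8.39 and 258 TPM, and the 3-day libraries of Sycp3 overlap those of the controls.

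A transcript's TPM should equal its estimated count, divided by its effective length and multiplied by a factor common to the library. Of 27664 transcripts with more than 1 estimated count in some library, only Stra8 and Piwil1, a piRNA-binding gene of spermatocytes, departed from this by more than 0.01%. Stra8 departed in all 6 libraries of the 14-day and 21-day groups and in no control or 3-day library, and Piwil1 in the 14-day libraries. The TPM of Stra8 differed from that given by its count by -8.14%, 3.74% and -11.2% at 14 days and by -0.491%, 3.97% and 1.46% at 21 days. The largest such difference for Sycp3 was 0.000391%.

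Its counts also differed in kind between the groups. The Stra8 count was a whole number in every control and 3-day library and in no 14-day or 21-day library. Of 21997 transcripts above 0 in all libraries, 9950 had whole counts (within 1e-06) in the 6 control and 3-day libraries, and 97.7% of those were whole in the other 6 as well. Stra8 was the 1 transcript of the 9950 that was not whole in any of the other 6. The cause of these differences was not tested.

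TPM in a library should sum to its fixed total. The totals fell short of it by 12.01, 9.999 and 18.01 TPM in the 14-day libraries and by 3.05 and 3.97 TPM in the second and the third 21-day library, and differed from it by -0.0869 to 0.0604 TPM in the others. These amounts are close to or above the level of Stra8 itself at 14 days. Read from its TPM alone, the Stra8 count would be 168, 205 and 161 at 14 days and 146, 155 and 153 at 21 days. Were the whole missing TPM added to Stra8, the counts would be 373, 398 and 459 at 14 days and 146, 217 and 222 at 21 days. Were it shared with Piwil1 at 14 days in proportion to their deposited TPM, the counts there would be 185, 222 and 185, while the 21-day counts would take all of their missing TPM as before. This reading is called the shared reading below. The files do not say to which transcript the missing TPM belongs, so the readings with missing TPM are calculations and not measurements.

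**Figure D2:**
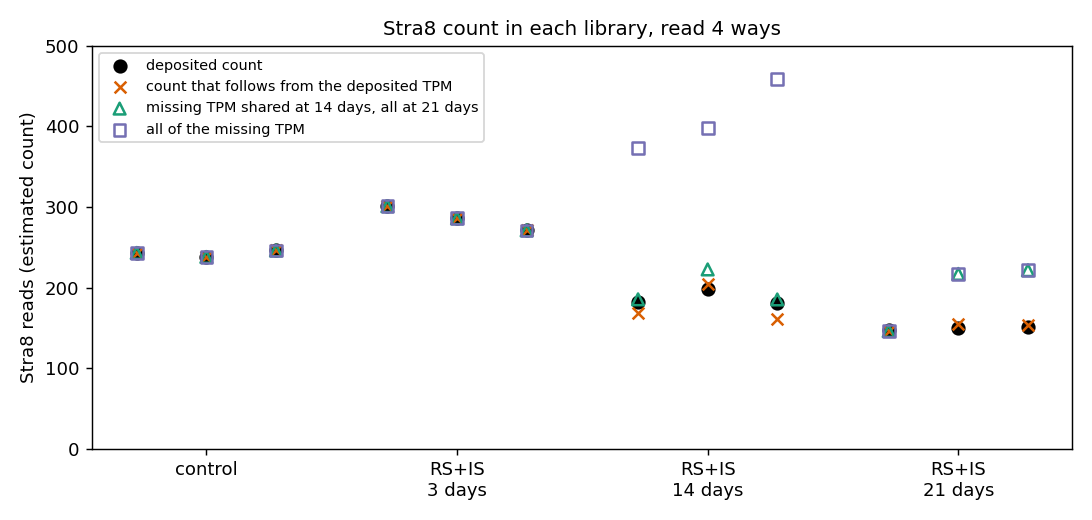
Stra8 count in each library on a linear axis from 0, as deposited (circles), as it follows from the deposited TPM (crosses), and with the missing TPM shared with Piwil1 at 14 days and added in full at 21 days (triangles), or added in full in both groups (squares). The readings coincide in control and 3-day libraries and part in the 14-day libraries, where the squares run from 373 to 459 and the circles from 181 to 198.

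After 14 days of stress neither gene passed the test across all features. On the deposited counts Stra8 had a log2 fold change of -0.30 ± 0.11 (SE) against control, a change of -18.8%, with an unadjusted p of 0.02502 and an adjusted p of 0.368 (edgeR quasi-likelihood test, Benjamini-Hochberg). Sycp3 had -0.17 ± 0.06, a change of -11.3%, with an unadjusted p of 0.0189 and an adjusted p of 0.344. No feature of 21058 passed an adjusted p of 0.05 in either direction (0%), and 4.86% were lower at an unadjusted p under 0.05, as both members were. In CPM both genes had every 14-day library below every control library, which held for 8.75% of features. For Stra8 the direction turned with the reading of its count: the log2 fold change was 0.84 with all of the missing TPM and -0.23 (adjusted p = 0.432) in the shared reading. The group means of its deposited TPM differed by -0.38 on the log2 scale.

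After 21 days the differences from control were wider, and still did not pass the test over all features. Stra8 had a log2 fold change of -0.63 ± 0.12, a change of -35.4%, with an unadjusted p of 0.00138 and an adjusted p of 0.154. Sycp3 had -0.23 ± 0.08, a change of -15.0%, with an unadjusted p of 0.0191 and an adjusted p of 0.269. Only 0.019% of 21106 features passed the adjusted test, while 5.71% were lower at an unadjusted p under 0.05. Both genes again had no overlap with controls in CPM, as had 9.69% of features in that direction. Stra8 passed the adjusted threshold with DESeq2 (adjusted p = 0.0111) and in an edgeR fit of all 12 libraries (adjusted p = 0.0187). With the missing TPM added it came to -0.25 ± 0.18 (adjusted p = 0.537).

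After 3 days of stress neither gene passed at either threshold. Stra8 had a log2 fold change of 0.18 ± 0.11 (adjusted p = 0.985), with every 3-day library above every control library in CPM, as had 5.45% of features. Sycp3 had 0.041 ± 0.070 (adjusted p = 0.986), and its groups overlapped. No feature of 21076 passed the adjusted test (0%), and 4.04% passed at an unadjusted p under 0.05. Without the first 3-day library the value of Stra8 was 0.092 and that of Sycp3 -0.012, and without the first control library that of Sycp3 was 0.0041.

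Set against the 3-day group, the values at 14 and 21 days were lower for both genes and did not pass the adjusted test. Stra8 had log2 fold changes of -0.48 ± 0.11 at 14 days (adjusted p = 0.236) and -0.83 ± 0.13 at 21 days (adjusted p = 0.142). Sycp3 had -0.22 ± 0.05 (adjusted p = 0.252) and -0.30 ± 0.07 (adjusted p = 0.176). Features called by the adjusted test made up 0% at 14 days and 0.00472% at 21 days, and those lower at an unadjusted p under 0.05, as both genes were each time, made up 5.65% and 8.32%. Between 21 and 14 days Stra8 had -0.33 ± 0.12 and Sycp3 -0.064 ± 0.059 (adjusted p = 0.999 for both), with 1.35% of features lower at an unadjusted p under 0.05, Stra8 among them. Over the alternatives run, which include the readings with missing TPM, the Stra8 value there ran from -1.09 to -0.020. The Sycp3 value there rested on single 21-day libraries: it was -0.022, -0.12 and -0.034 without the first, the second and the third. The sign of the Stra8 value at 14 days against 3 days also turned, to 0.65, with all of the missing TPM. From the group means of its deposited TPM that value was -0.60.

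With both longer exposures in 1 comparison, Stra8 passed the adjusted test against control and Sycp3 did not. Stra8 fell by 27.6%, with a log2 fold change of -0.47 ± 0.09 and an adjusted p of 0.0492 that lay just inside the threshold. Sycp3 had -0.20 ± 0.05, a change of -13.2%, with an adjusted p of 0.0945. All 6 libraries of the longer exposures lay below the 3 controls for each gene in TPM (exact permutation test, two-sided, p = 0.0238, the smallest that 6 against 3 libraries can give). Over all features 0.166% were called lower and 4.38% had groups without overlap in that direction. The Stra8 call was lost in each of the 9 fits that left out 1 library (adjusted p between 0.0566 and 0.149), in the shared reading, which adds all of the missing TPM at 21 days (adjusted p = 0.338), and with all of it in both groups the value turned to 0.29.

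Against control and 3-day libraries together, where 6 libraries stood on each side, both genes passed. Stra8 fell by 31.7%, with a log2 fold change of -0.55 ± 0.07 and an adjusted p of 0.00604. Sycp3 fell by 14.04%, with -0.22 ± 0.05 and an adjusted p of 0.0232. The share of all 21992 features called lower was 1.56%, and 1.63% had groups without overlap in that direction, as both genes had. In TPM the 6 libraries of the longer exposures lay below the other 6 for both genes (exact permutation test, two-sided, p = 0.00216, the smallest possible). The Stra8 call held in all 12 fits that left out 1 library, but not in the shared reading, with its full addition at 21 days (-0.32, adjusted p = 0.0792), and all of the missing TPM in both groups turned the value to 0.21. The Sycp3 call, which does not use Stra8's values, was lost only without the first 3-day library (-0.20, adjusted p = 0.0657) among the alternatives run.

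**Figure D3:**
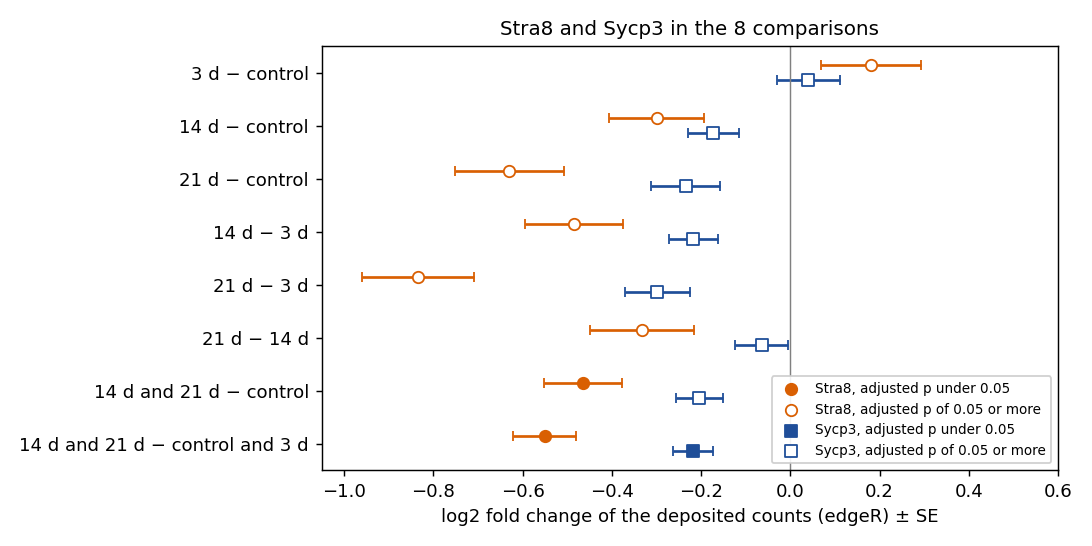
Log2 fold changes of the deposited counts with their standard errors (edgeR) for Stra8 (circles) and Sycp3 (squares) in the 8 comparisons, filled where the adjusted p is under 0.05. Stra8 lies farther from 0 than Sycp3 in every comparison, and the lowest value is -0.83, for 21 days against 3 days. The comparisons share libraries and are not independent.

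The ratio of Stra8 to Sycp3 within a library asks whether the early marker changed by more than the later one, and library scaling cancels out of it. On counts the log2 ratio averaged -5.39 ± 0.05 in controls, -5.25 ± 0.07 at 3 days, -5.51 ± 0.06 at 14 days and -5.78 ± 0.15 at 21 days (SD, n = 3). Against controls it differed by -0.13 at 14 days, by -0.40 at 21 days and by 0.14 at 3 days, each time without overlap (exact permutation test, two-sided, p = 0.1, the smallest that 3 against 3 libraries can give). For both longer exposures against control the difference was -0.26 (exact permutation p = 0.0238, 0.0952 adjusted over the 8 comparisons). Against control and 3-day libraries together it was -0.33 (exact permutation p = 0.00216, adjusted 0.0173). On TPM those differences were -0.30 and -0.37, with the same p-values. The ratio takes Stra8's values at 14 and 21 days as deposited, with the limit given above. In the shared reading the third 21-day library held 222 Stra8 counts beside 7860 of Sycp3. The third control library held 246 beside 10691, a lower ratio, so the separation of the groups rests on the deposited values.

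**Figure D4:**
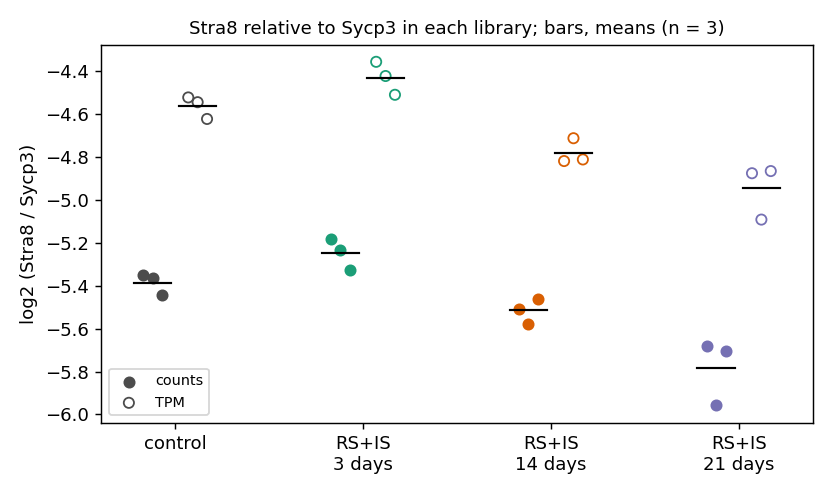
Log2 ratio of Stra8 to Sycp3 in each library, from counts (filled) and from TPM (open), with bars at the group means. The highest values are those of the 3-day group and the lowest those of the 21-day group, at -5.25 and -5.78 on counts. The y axis does not start at 0.

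The other genes of meiotic entry were read from a list of 21 genes of retinoic acid signalling and entry into meiosis, of which 6 could be named through the marker table, Stra8 included. At 14 days 4 of the 6 were lower at an unadjusted p under 0.05 and at 21 days 3 were, none was higher, and the list's median log2 fold change was -0.25 at each time against -0.012 and -0.0031 over all features. Without Stra8, 3 of 5 were lower at 14 days and 2 of 5 at 21 days, with medians of -0.22 and -0.14. Over all features 4.86% and 5.71% were lower at that threshold. Ccne2, a cyclin that drives entry into S phase, stood nearest to Stra8 in its values: 23.9, 22.7 and 23.2 TPM in controls, 24.4, 24.7 and 27.0 at 3 days, 21.1, 19.5 and 17.9 at 14 days, and 17.2, 16.8 and 19.2 at 21 days. Its 14-day and 21-day libraries lay below all controls. Tex19.1, a gene that restrains transposons in germ cells, ranged from 10.8 to 12.6 TPM in controls and from 8.33 to 9.71 TPM at 21 days. Against control and 3-day libraries together, Ccne2 fell by 0.36 on the log2 scale (adjusted p = 0.00753) and Tex19.1 also by 0.36 (adjusted p = 0.0160), beside Stra8.

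The other members did not pass. Rdh11, a retinol dehydrogenase, had log2 fold changes of -0.17 at 14 days (unadjusted p = 0.0330) and -0.11 at 21 days. Dmrtb1, a regulator of the switch from mitosis to meiosis, had -0.07 and -0.14. Ccnd1, a cyclin of dividing spermatogonia, had -0.22 and 0.12, with control libraries spread from 2.21 to 4.41 TPM. Of the 3 members that passed, Ccne2 and Tex19.1 have no disagreement between count and TPM, and without Stra8 the list's median against control and 3-day libraries was -0.12, against -0.24 with it.

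Of 14 genes of the synaptonemal complex and chromosome axis, 4 could be named: Sycp3, Sycp2, Syce1 and Syce2. All had log2 fold changes below 0 at 14 and at 21 days against control, and at each time 1 of the 4, Sycp3, was lower at an unadjusted p under 0.05, as were 4.86% and 5.71% of all features. Sycp2, which forms the lateral elements together with Sycp3, held between 117 and 133 TPM in controls and between 108 and 117 TPM at 21 days, with a log2 fold change of -0.11 (unadjusted p = 0.217). Syce1, of the central element that joins the 2 sides of the complex, held between 94.0 and 120 TPM in controls and between 96.4 and 107 TPM at 21 days, with -0.017 (unadjusted p = 0.876). Syce2, also of the central element, held 30.4, 28.6 and 25.8 TPM in controls, 37.1, 32.004 and 27.3 at 3 days, 22.8, 22.9 and 24.6 at 14 days, and 23.1, 21.8 and 28.0 at 21 days. Its 14-day libraries lay below all controls, with -0.25 (unadjusted p = 0.05002), and its 21-day libraries overlapped them. Against control and 3-day libraries together, Sycp3 was the only member of the 4 to pass the adjusted test, and Syce2 had -0.29 (adjusted p = 0.0887). Whether Sycp3 differed from Sycp2 or the central element genes in its change was not tested.

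Markers of each stage were read to place both genes among their neighbours in development. Of the 12 spermatogonia markers 4 were lower at 14 days and 5 at 21 days at an unadjusted p under 0.05, none was higher, and 4.86% and 5.71% of all features were lower at that threshold. The medians were -0.26 and -0.33 on the log2 scale, against -0.012 and -0.0031 over all features. Without Stra8, 3 of 11 were lower at 14 days and 4 of 11 at 21 days, with medians of -0.25 and -0.29. Stra8 had the fourth lowest value of the 12 at 14 days and the second lowest at 21 days.

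The meiotic stages lay closer to 0. Of 65 preleptotene markers 1 was lower at 14 days and 10 at 21 days, of 73 leptotene and zygotene markers 2 and 8, of 109 pachytene markers 2 and 7, and of 76 markers of diplotene and the divisions 3 and 8. At 14 days the share lower was below the 4.86% of all features in each of these stages, and at 21 days it was near the 5.71% of all features for pachytene and above it for the others. None in these stages was higher at either time, and their medians at 21 days lay between -0.07 and -0.05, against -0.0031 over all features. Sycp3, counted among the preleptotene and pachytene markers, had the tenth lowest log2 fold change of 181 spermatocyte markers at 21 days. Among the markers of these stages with the smallest p-values were Psma8, a subunit of the testis proteasome, with -0.31 (unadjusted p = 0.0055), and Cdc20, an activator of the anaphase-promoting complex, with -0.29 (unadjusted p = 0.0299). A marker can belong to more than 1 stage, so these counts overlap, and a few rest on library scaling: with scaling to the total count alone the leptotene and zygotene count at 21 days was 16 and the pachytene count 17.

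Among genes of recombination and repair, Xrcc4, of double-strand break joining, had a log2 fold change of -0.43 at 21 days (unadjusted p = 0.0468), and Ube2t, a ubiquitin-conjugating enzyme of crosslink repair, had -0.29 (unadjusted p = 0.0380). Atad5, a factor that unloads the replication clamp, had -0.13 (unadjusted p = 0.119), and at 14 days none of these 3 had an unadjusted p under 0.05. Of 12 genes of prophase progression 1 was lower at 14 days and 3 at 21 days, when 4.86% and 5.71% of all features were, among them Piwil1 with -0.23, whose deposited values also disagree at 14 days, and Spdya, which ties telomeres to the nuclear envelope, with -0.20. Of 11 genes of the meiotic divisions none was lower at 14 days and 3 were at 21 days, Cdc20, Pbk and Cks2. None of these members passed the adjusted test at 21 days.

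The 8 genes of a spermatid list moved the other way at 14 and 21 days in the same libraries. All 8 on the list were measured and none was at 0 in any library. Their summed level ran from 29501 to 36730 TPM in controls, from 29859 to 32162 at 3 days, from 36481 to 40318 at 14 days and from 40295 to 43153 at 21 days. Much of it was Tnp1, with a mean of 24544.5 TPM at 21 days against 41744.8 for the sum. Against control alone 2 of the 8 were higher at an unadjusted p under 0.05 at 14 days, at 21 days and for both. None passed the adjusted test there. Over all features 2538 of 21058 at 14 days, 2991 of 21106 at 21 days and 4180 of 21663 for both passed the unadjusted threshold in either direction. Of these, 1023 were lower at 14 days and 1205 at 21 days. The split by direction is not given for both together, and no excess is read from 2 of 8 genes. At 3 days all 8 had values below 0, with a median of -0.14. Against control and 3-day libraries together 7 of the 8 were higher at an unadjusted p under 0.05 and 3 passed the adjusted test, against 13.9% of all features higher at that unadjusted threshold and 5.42% called in either direction by the adjusted test. Tnp1 and Tnp2, the transition proteins that replace histones in elongating spermatids, rose by 0.46 each on the log2 scale (adjusted p = 0.0098 and 0.0258). Bcas2, a spermatid marker outside the list, had -0.26 in the same comparison (edgeR, adjusted p = 0.0211). The study's other spermatid markers were not counted here. The part of the rise of the 8 genes in the lower shares of Stra8 and Sycp3 was not tested.

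The markers nearest to each gene were found by the root mean square difference of log2 CPM over the 12 libraries, each gene centred on its own mean, among the 577 other markers. For Stra8 these were Ccne2 (0.17), Tex19.1 (0.18), Coprs (0.20), Bcas2 (0.20) and Sycp3 (0.21), and the typical marker lay at 0.37. Each had its lowest group mean at 21 days and its highest at 3 days. For Sycp3 they were Cox7b2 (a subunit of cytochrome c oxidase), Calm2 (a calmodulin gene), Cep72 (a centrosome protein), Tomm22 (a receptor of mitochondrial protein import) and Pbk (a kinase of dividing cells), at 0.05 to 0.06 against 0.19 for the typical marker. Stra8 was in place 329 from Sycp3, although Sycp3 was in the fifth place from Stra8, since the measure also counts the size of the changes, and those of Stra8 were wider. Of the 5 nearest to Stra8, 4 were also among the nearest on log2 TPM, and of those to Sycp3, 3 were. These distances share libraries and scaling with the comparisons above, and use the Stra8 counts as deposited.

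**Figure D5:**
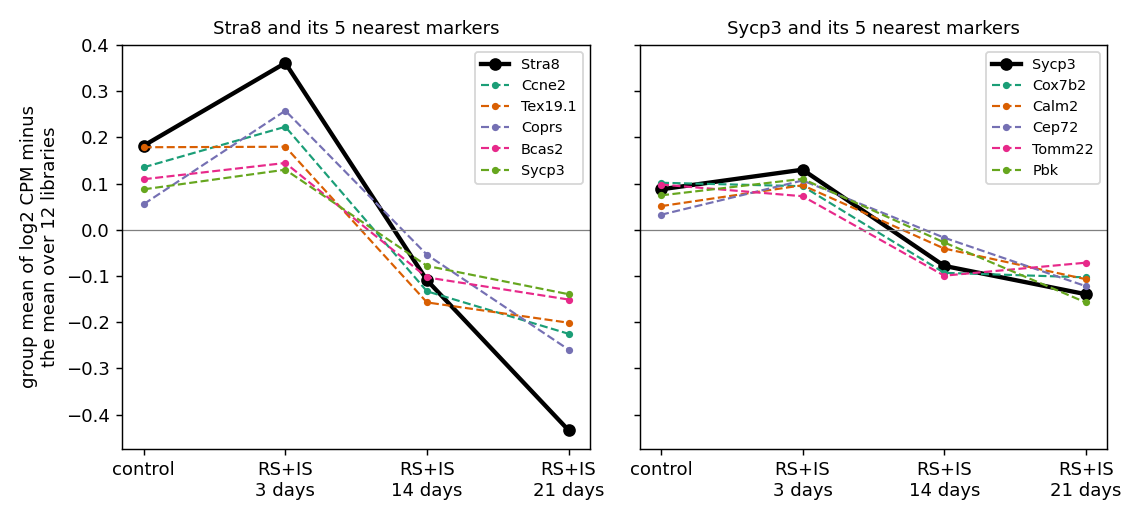
Group means of log2 CPM minus the gene's mean over 12 libraries for Stra8 (left) and Sycp3 (right), drawn as solid lines, with the 5 nearest markers of each as dashed lines. Stra8 runs from 0.36 at 3 days to -0.43 at 21 days, a wider range than any of its neighbours, and Sycp3 from 0.13 to -0.14.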

How the data were processed

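The authors deposited, for each of the 12 libraries, a transcript table with estimated counts and TPM. Per the study's methods and the submitters' processing notes, reads were trimmed with Trimmomatic, aligned to Rnor_6.0 (rn6) with HISAT2 and counted with HTSeq; versions are not given in the sources used here. The layout, with effective lengths, is that of another quantification tool, which the sources do not name. The deposited TPM is the authors' count per effective length, scaled to the same total in each library. Exceptions are the Stra8 and Piwil1 values and the totals that fell short, both given above. No column held another sample.

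Markers were matched to transcripts by their counts (425 to a single transcript, 150 to a run of neighbouring rows, 3 to 2 runs, within 1 count). After rounding, the estimated counts of all features were tested with edgeR 4.0.16 in R 4.3.3 (quasi-likelihood test, TMM, filterByExpr by group, Benjamini-Hochberg, threshold 0.05), with the libraries of the groups compared only; CPM used a prior count of 2 on the log2 scale. The script was tested on simulated data. Single values were compared with exact permutation tests (SciPy 1.17.1). Alternatives were DESeq2 1.42.0, limma 3.58.1 on log2(TPM + 1) and log2(TPM + 0.1), other scalings, filters, a replicate block, each library left out, and other readings of the Stra8 count. A reading with the missing TPM shared with Piwil1 at 14 days was chosen after seeing the data. Sycp3 has 1 transcript, so shares of transcripts could not be computed.

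Members, gene lists and tests were chosen with earlier results of these data known. The genes named were both members, every measured gene of the meiotic entry and synaptonemal complex lists, up to 4 genes of each other list or stage with the smallest p at 21 days, and the 5 markers nearest to each member. The full count of the recombination and repair list is not reported here.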

Additional observations from a re-analysis of the deposited data

Results flagged for a closer look

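Stra8 stood out because its values lay on opposite sides of the control group after stress of different length: all 3 libraries of the 3-day group lay above every control library, and all 3 libraries of the 14-day group, and of the 21-day group, lay below. Against control none of these differences passed the adjusted test (edgeR, adjusted p = 0.985 at 3 days, 0.368 at 14 days and 0.154 at 21 days), and without the first 3-day library the 3-day value was 0.092 in place of 0.18. Compared directly, the log2 fold change of the deposited counts was -0.48 at 14 days against 3 days (edgeR, adjusted p = 0.236) and -0.83 at 21 days against 3 days (adjusted p = 0.142), so neither difference passed the test over all features. The 3-day values are free of the disagreement between count and TPM and the 14-day and 21-day values are not, and with all of the missing TPM added the first value was 0.65 and the second -0.45. The comparisons with control share the same 3 control libraries.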

How the results depend on the processing

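The direction of Sycp3 was the same under every alternative except 3 days against control without the first 3-day library (-0.012, with values between -0.012 and 0.087 over the 6 fits that left out 1 library). Its adjusted call against control and 3-day libraries together was lost only in 1 of 12 such fits, whose values ran from -0.27 to -0.20. DESeq2 added calls for Sycp3 at 14 days (-0.21) and 21 days (-0.28) against 3 days and for both longer exposures against control (-0.21).

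Stra8 depended on its reading. With all of the missing TPM its values were 0.84 at 14 days against control, 0.65 at 14 against 3 days, 0.29 for both longer exposures against control and 0.21 against control and 3-day libraries. In the shared reading, with only part of it at 14 days but all of it at 21 days, the last pair were -0.24 and -0.32, neither past the threshold. At 21 against 14 days the Stra8 values ran from -1.09 to -0.020 over the alternatives. Calls were added at 21 days by DESeq2 (-0.63 against control, -0.82 against 3 days) and by the fit of all libraries (-0.62 and -0.81). The call of Stra8 for both longer exposures against control was lost with RLE size factors (-0.47, adjusted p = 0.05001), total count scaling (-0.47), no filter (-0.47), limma on log2(TPM + 1) (-0.47) and log2(TPM + 0.1) (-0.51), and whenever 1 library was left out (-0.48 to -0.44). The log2 ratio to Sycp3 in that comparison ran from -0.30 to -0.20 without 1 library, and its unadjusted exact permutation p went above 0.05 in the 3 fits with 2 controls, where 0.0714 is the smallest possible. The other causes were not tested.

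No pair of groups had correlations over 0.1 for all 3 replicate numbers, the rule used here for pairing. Single correlations ran from -0.12 to 0.22, and the rule cannot exclude an effect shared by some of the numbers. With the number as a replicate block the values of both genes kept their sign; Stra8 for both longer exposures against control (-0.47) came to an adjusted p of 0.105, and no other call of the 2 genes changed. The features called in that comparison numbered 257, 0 with the block, 24 with total count scaling and 1382 with DESeq2. In the 6 against 6 comparison they numbered 1192, and 2393 with DESeq2. Shares of Sycp3 transcripts could not be run, since it has 1 transcript. A count near 150 limits the precision for Stra8.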
